A study of Mus musculus with 12 samples.

Results

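The comparison described here set primary mouse embryonic fibroblasts (MEFs) without CBP and p300 against wild-type MEFs, both after vehicle alone. It used 6 of the 12 arrays in the series, those of CBP/p300 null lines 1, 5 and 6 and of wild-type lines 3, 4 and 5 after 3 h in ethanol. The other 6 arrays hold the same lines after 3 h with 100 µM dipyridyl, an iron chelator, and their values are given only beside those in ethanol. All cells came from embryos of stage e14.5 on the background C57Bl/6 x 129Sv (F1) and were at passage 4. The null lines were homozygous for conditional alleles of both genes. Both genotypes were exposed for 16 h, under 3% oxygen, to an adenovirus that carried Cre recombinase (multiplicity of infection 100), so that virus and recombinase were shared by null and wild-type cells. The medium was then changed, and growth went on for 48 h under 3% oxygen and for another 24 h in normoxia (5% CO2 at all times) before the vehicle was added. The sources used here give neither the share of cells that recombined nor whether each numbered line came from an embryo of its own, and p-values measure only the spread between these lines. Each array was made from 100 ng of total RNA.

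Array signals were log2 values after robust multi-array averaging (RMA), and 17097 genes had a probe set listed with exactly 1 gene symbol. Of these, 16328 were autosomal and make up the results below. Values per array are given in the order of lines 3, 4 and 5 for wild type and 1, 5 and 6 for null. A difference is the null mean minus the wild-type mean of log2 values, and the value after ± is its standard error from limma, with n = 3 in each genotype. Adjusted p-values come from limma with Benjamini-Hochberg adjustment over all 17097 genes. A gene is called changed at an adjusted p under 0.05. The 95th percentile of the blank control probe sets, averaged over the ethanol arrays, was 3.52 log2 and is called the blank level, and a fold that starts or ends at or under it is understated.

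CBP, encoded by Crebbp, and p300, encoded by Ep300, are paralogous coactivators that acetylate lysines on histones and other proteins. They are recruited to enhancers and promoters by many sequence-specific factors, among them CREB, AP-1, SRF cofactors, Smads, the Notch complex, beta-catenin, p53, NF-kB and HIF. In fibroblasts these factors govern genes of the extracellular matrix, contraction, inflammation and the early response to growth factors, which are among the gene lists described below. The lists were chosen with earlier results of these data known.

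The ethanol arrays had median values from 3.865 to 3.932 log2. The arrays of wild-type line 5 and null line 1 had the lowest mean correlations within their own groups, 0.9886 and 0.9856. Wild-type lines 3 and 4 had 0.992 and 0.9925, and null lines 5 and 6 had 0.9891 and 0.992. By this measure null line 5 was thus close to wild-type line 5. The deviations of wild-type line 5 and null line 1 from their group means correlated with each other (r = 0.845 across 8910 genes, which are not independent replicates). These 2 are called the deviating arrays below. The excess of 3' over 5' probe sets, which grows as RNA degrades, was 0.228 to 0.246 log2 for beta-actin in wild type and 0.397 to 0.448 in null. For GAPDH it was -0.03 to 0.146 in wild type and 0.19 to 0.214 in null. Both measures separated the genotypes without overlap, and their part in the results was not tested. Xist, which silences an X chromosome in female cells, had log2 values of 10.28 to 10.65 in wild type and of 3.94 to 5.32 in null. Eif2s3y, a gene on the Y chromosome, had 2.49 to 3.06 in wild type and 7.08 to 8.35 in null. Sex-linked expression and genotype therefore cannot be told apart here, also for autosomal genes.

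Crebbp read 8.35, 8.37 and 8.07 log2 in wild type and 7.02, 7.68 and 7.54 in null. The groups did not overlap, and the null values, with line 1 lowest, remained well above the blank controls. The difference was -0.85 ± 0.19 (adjusted p = 0.0116), and the call was lost at an adjusted p of up to 0.051 without wild-type line 3 or without wild-type line 4. Crebbp was represented by 1 probe set, and no source used here places it inside or outside the deletion, so that the value does not check the deletion. Ep300 was not analysed here.

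Between null and wild-type cells 4231 autosomal genes differed (25.9% of those tested), 2396 higher (14.7%) and 1835 lower (11.2%) in null. Larger differences were more often falls. At least 2-fold differences were called for 1485 genes (9.09%), 850 falls (5.21%) and 635 rises (3.89%). Differences of at least 2 log2 units were called for 236 falls and 86 rises, and of at least 3 log2 units for 48 falls and 21 rises. Groups did not overlap for 4224 of the called genes, and for 40.3% of all autosomal genes. Most genes named below were picked among the called ones. Where their groups are described as apart, this follows from that choice and adds no support. The median difference over all autosomal genes was -0.009, and the median of its absolute size was 0.225. The share of calls that were higher in null was 56.6%, against 45.1% after cyclic loess normalization, so that the balance of all calls reversed with the scaling. Among calls of at least 2-fold, 57.2% were lower, and 67.5% after cyclic loess. The count of higher genes fell from 2396 to 1582 without null line 6. Between chromosomes the called share ran from 22.2% on chromosome 7 to 28.0% on chromosome 19.

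**Figure D1:**
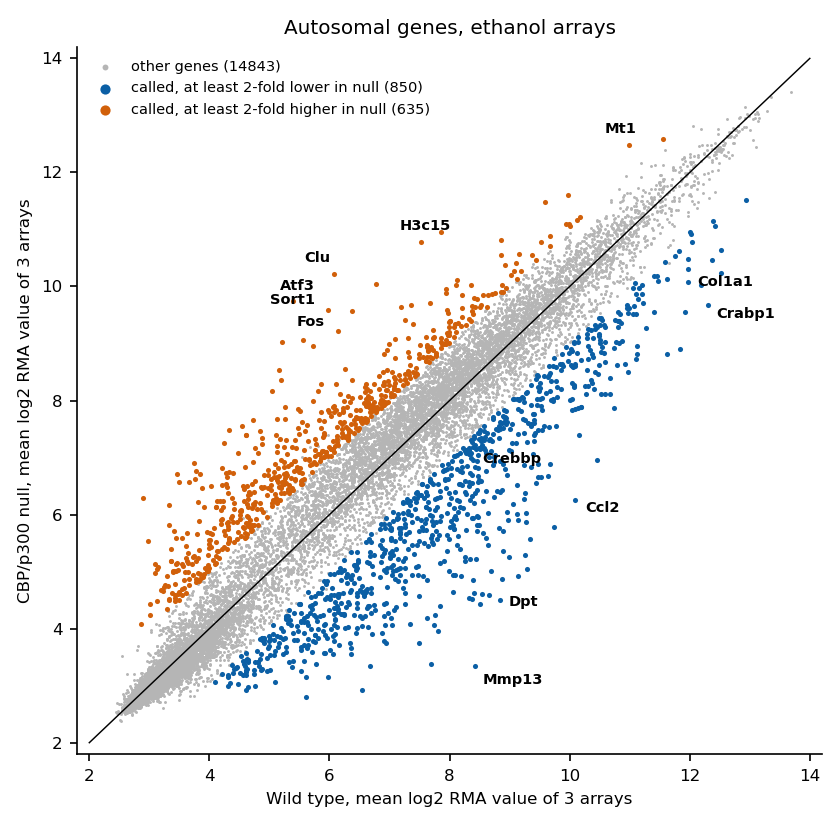
Mean log2 RMA value of each autosomal gene in the 3 wild-type ethanol arrays (horizontal axis) against that in the 3 null ethanol arrays (vertical axis), with the diagonal marking equal values. Blue points are the 850 genes called at least 2-fold lower in null, orange points the 635 called at least 2-fold higher, and grey points all others. Mmp13 and Dpt lie far below the diagonal, and Atf3, Clu and Sort1 far above it.

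Other measurements of the same lines gave the differences a further view. On the dipyridyl arrays 843 of the 850 falls and 625 of the 635 rises had the same sign without overlap of the genotypes, beside 54.0% of all autosomal genes without overlap there (25.6% lower, 28.4% higher). The sign was opposite for 3 falls and 5 rises. These are different arrays of the same 6 lines, so they share each line's own features, sex included. A further probe set of the same gene lay above the blank controls for 589 of the 2-fold genes. It had the same sign for 566 of them and was itself called with that sign for 465. Of the 2-fold falls, 55 ended at or under the blank level, and of the 2-fold rises 43 started there.

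The 12 largest falls are described first. Mmp13, which encodes the collagenase MMP13, read 8.45, 8.44 and 8.37 log2 in wild type and 3.06, 3.74 and 3.25 in null. The null values bracketed the blank level, and the measured difference of -5.07 ± 0.18 (33.5-fold lower, adjusted p = 1.09e-05) is thus understated. Dpt, which encodes the matrix protein dermatopontin, read 8.55, 8.85 and 9.12 in wild type and 4.92, 4.79 and 3.80 in null, 20.2-fold lower (-4.34 ± 0.30, adjusted p = 7.68e-05). All its wild-type values lay far above all null values, with null line 6 lowest. Ly6c1, a membrane-anchored surface antigen, fell by 4.24 ± 0.22, and Pla2g7, a secreted phospholipase that inactivates platelet-activating factor, fell by 4.22 ± 0.30. Csgalnact1, an enzyme that starts chondroitin sulfate chains, read 8.93, 8.97 and 8.71 against 4.80, 5.10 and 4.7, a difference of -4.01 ± 0.14. Tgfbi, a matrix protein named for its induction by TGF-beta, fell by 3.94 ± 0.33, and Ppbp, a platelet-type chemokine, fell by 3.92 ± 0.29. The other genes among the 12 largest falls were Mmp3, Col18a1, Col5a3, Aspn and Stmn2, described with their groups.

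The 12 largest rises were as follows. Atf3, a stress-induced transcription factor of the ATF/CREB family, read 5.28, 5.29 and 5.59 log2 in wild type and 10.03, 9.47 and 9.75 in null, 20.5-fold higher (4.36 ± 0.17, adjusted p = 1.18e-05). Clu, which encodes the extracellular chaperone clusterin, read 5.82, 6.19 and 6.20 against 10.46, 9.73 and 10.46, 17.7-fold higher (4.15 ± 0.22, adjusted p = 2.74e-05). In both genes each null array lay over 3 log2 units above each wild-type array. Atp6v0e2, a subunit of the proton pump that acidifies lysosomes, rose by 3.81 ± 0.15, and Sort1, the sorting receptor sortilin, by 3.60 ± 0.12. Chrnb1, a subunit of the acetylcholine receptor of muscle, rose by 3.49 ± 0.13, and Cox7a1, a respiratory chain subunit typical of heart and muscle, by 3.36 ± 0.14. Abhd3, a phospholipid hydrolase gene, went from 2.86, 2.99 and 2.85, under the blank level, to 6.42, 6.26 and 6.17. Elovl7, a fatty acid elongase gene, also started at the blank level and rose by 3.27 ± 0.14. Pcbd1, an enzyme of tetrahydrobiopterin recycling, rose by 3.26 ± 0.12, Qpct, glutaminyl cyclase, by 3.23 ± 0.20, and Spint2, a membrane-bound inhibitor of serine proteases, by 3.19 ± 0.10. H3c15, a histone H3 gene, rose by 3.26 ± 0.13, and its probe set may share signal with near-identical copies.

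**Figure D2:**
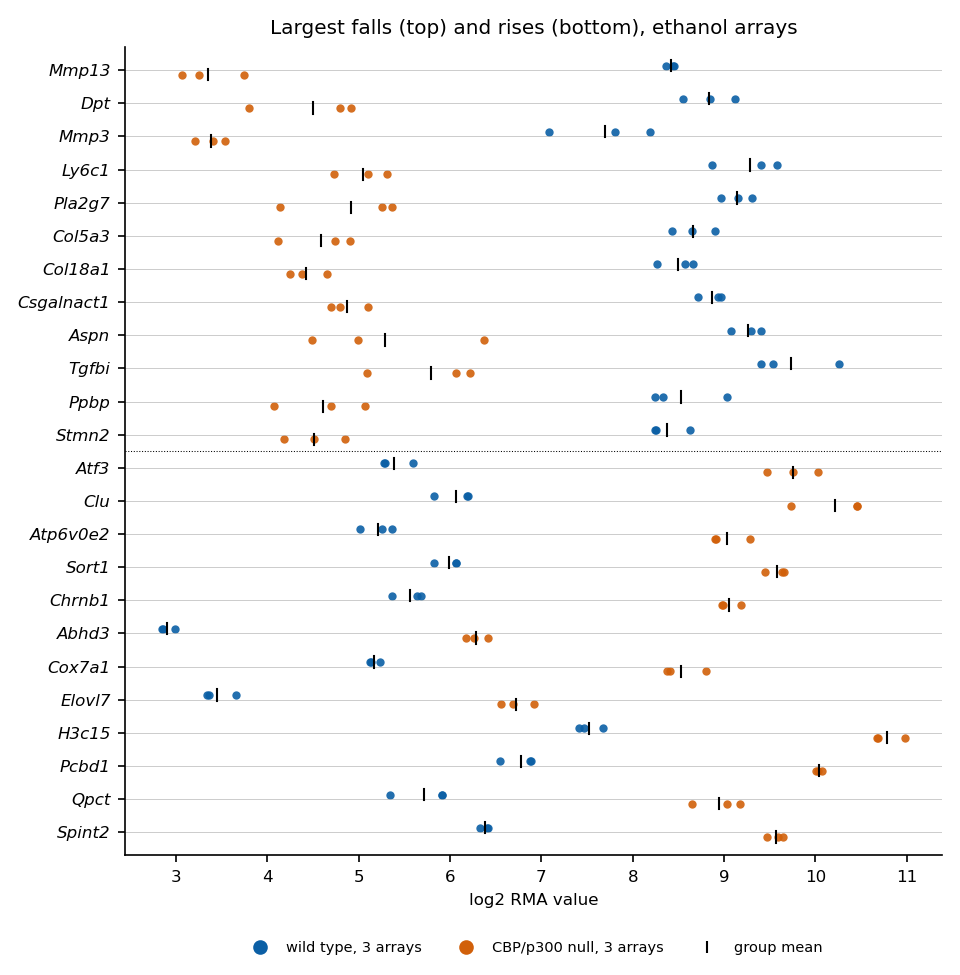
Log2 RMA values per ethanol array of the 12 genes with the largest falls (above the dotted line) and the 12 with the largest rises (below it). They were selected among called autosomal genes whose groups do not overlap. Blue points are the 3 wild-type arrays, orange points the 3 null arrays and black ticks the group means, and the separation of the groups follows from the selection.

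Genes of the extracellular matrix fell across almost the whole list. Of 37 measured collagens and other structural matrix genes, 33 fell and 0 rose, with a median of -1.45 beside -0.009 over all autosomal genes, and 26 of the falls were at least 2-fold. Col18a1, whose product is a basement membrane collagen and the source of endostatin, read 8.57, 8.27 and 8.66 log2 in wild type and 4.38, 4.65 and 4.25 in null, 16.8-fold lower (-4.07 ± 0.15, adjusted p = 1.17e-05). Col5a3, a chain of type V collagen, read 8.65, 8.43 and 8.90 against 4.91, 4.74 and 4.12, also -4.07 (± 0.22). Neither gene had a null array near a wild-type array. Col6a3 and Col6a1, chains of the microfibrillar type VI collagen, fell (differences of -2.95 ± 0.25 and -2.48 ± 0.20). Col1a1, the main chain of type I collagen, read 11.90, 11.93 and 12.11 in wild type and 10.54, 10.47 and 9.89 in null, a difference of -1.68 ± 0.18, 3.2-fold.

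The small leucine-rich proteoglycans, which bind collagen fibrils and growth factors, followed the collagens, with 8 of 9 lower and 0 higher (median -1.75). Aspn, encoding asporin, read 9.29, 9.41 and 9.08 log2 in wild type and 4.99, 6.37 and 4.49 in null, a difference of -3.98 ± 0.42. Null line 5 was the highest of the null arrays for Aspn and also for Dcn, the decorin gene, which read 8.94, 9.23 and 8.81 against 4.61, 6.07 and 5.11. Dcn fell by 3.73 ± 0.33, and Lum, encoding lumican, fell by 3.53 ± 0.23. Fmod, encoding fibromodulin, fell by 2.10 ± 0.24.

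Among 21 measured matrix proteases and their inhibitors 17 fell and 0 rose (median -1.61), so that enzymes which cut matrix fell along with matrix genes. Besides Mmp13, the list held Mmp3, encoding stromelysin-1, which read 7.81, 7.08 and 8.19 log2 in wild type and 3.40, 3.54 and 3.21 in null (-4.31 ± 0.26). The null values of Mmp3 were at the blank level, and its fold is understated. Mmp10, encoding stromelysin-2, read 8.15, 8.16 and 7.95 against 4.88, 4.75 and 5.18 (-3.15 ± 0.14). Timp3, the matrix-bound inhibitor of these proteases, fell by 2.75 ± 0.11, from 10.15, 10.25 and 10.05 to 7.44, 7.48 and 7.28, with no overlap.

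Mmp13, Mmp3 and Mmp10 lie on chromosome 9, and the 100 bases before each start site, shown because these 3 genes fell furthest in the list, each hold 1 match to TGACTCA, the site bound by AP-1 dimers of Fos and Jun. The match (in capitals, on either strand) begins 35, 46 and 63 bases before the start in Mmp13 (chr9:7272414-7272513), Mmp3 (chr9:7445722-7445821) and Mmp10 (chr9:7502242-7502341), all on the plus strand of RefSeq's GRCm38.p6.
Mmp13: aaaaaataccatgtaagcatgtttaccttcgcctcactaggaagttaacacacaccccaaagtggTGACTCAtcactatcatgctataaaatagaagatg
Mmp3: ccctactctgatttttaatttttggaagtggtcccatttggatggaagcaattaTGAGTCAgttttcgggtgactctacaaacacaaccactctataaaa
Mmp10: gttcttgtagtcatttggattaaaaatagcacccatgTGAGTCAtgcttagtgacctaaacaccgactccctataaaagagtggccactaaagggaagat
The letters were found in windows of 250 bases before to 50 bases after the start in 5 of the 13 listed proteases and inhibitors with a promoter entry, namely Mmp10, Mmp12, Mmp13, Mmp3 and Plaur. Across the promoters of tested genes 5.4% held them (701 of 12989), as did 7.62% of the 2-fold falls and 6.5% of the 2-fold rises. A match is a description of the sequence and not a bound site.

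Defining markers of fibroblasts fell with them. Of 15 measured markers 13 were lower and 0 higher in null, with a median of -1.88, while the cells kept clear signal for all of the following. Vim, the mesenchymal intermediate filament gene, read 13.05, 13.09 and 13.16 log2 in wild type and 12.51, 12.46 and 12.39 in null (-0.64 ± 0.10). Thy1, a surface marker used to sort fibroblasts, read 12.03, 12.16 and 12.39 against 10.44, 10.08 and 9.57 (-2.16 ± 0.22). Pdgfrb, the receptor for platelet-derived growth factor B, fell by 2.39 ± 0.20, and Postn, encoding the matrix protein periostin, fell by 2.28 ± 0.34. Dcn and Lum, described above, are on this list as well and were 13.3-fold and 11.6-fold lower. No array reached the blank level for any gene named here, so that these markers were measured in both genotypes while most of the list was lower in null. In bulk RNA, fewer cells of a type and less RNA per cell cannot be told apart.

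Transcription factors of mesenchyme fell in part. Of 35 measured, 18 were lower and 0 higher (median -0.57), though under median centring 1 was higher. Prrx2 and Prrx1, homeobox factors of limb and skin mesenchyme, fell (differences of -2.66 ± 0.25 and -2.16 ± 0.21). Prrx1 read 10.87, 11.01 and 10.51 log2 in wild type and 8.33, 9.04 and 8.53 in null. Twist2, a bHLH factor of dermal fibroblasts, fell by 2.55 ± 0.15, and Snai2, a zinc finger repressor of epithelial genes, fell by 2.43 ± 0.22. The genotypes did not overlap in any of these genes.

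Contractile genes and targets of serum response factor (SRF) fell in 19 of 23 measured members, and 0 rose (median -1.01). SRF acts with actin-sensing cofactors at CArG boxes and drives genes of stress fibres. Cnn1, encoding calponin of smooth muscle, read 11.32, 11.23 and 11.27 log2 in wild type and 9.60, 9.40 and 8.82 in null (-2.0 ± 0.19). Myh11, the myosin heavy chain of smooth muscle, fell by 2.09 ± 0.24, and Mylk, the kinase that switches on smooth muscle myosin, fell by 1.73 ± 0.17. Fhl2, a LIM-domain cofactor, fell by 2.01 ± 0.20, and Myl9, a myosin light chain gene, fell by 1.24 ± 0.15. Acta1, the skeletal actin gene and a classic SRF target listed with muscle markers, read 11.63, 11.63 and 11.62 against 9.40, 8.69 and 8.35 (-2.81 ± 0.24, adjusted p = 0.000179). Its wild-type arrays were almost equal, while the null arrays spread over 1 log2 unit and stayed below them.

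Acta1 and Myl9 are shown as examples of a promoter with a match to the CArG box, in capitals, which begins 73 and 161 bases before the start. The windows are the 100 bases before Acta1 (chr8:123894776-123894875, minus strand) and the 180 bases before Myl9 (chr2:156775284-156775463, plus strand) in RefSeq's GRCm38.p6. Myl9 was chosen after its values were seen.
Acta1: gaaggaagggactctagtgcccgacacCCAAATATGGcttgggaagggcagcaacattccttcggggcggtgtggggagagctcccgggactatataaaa
Myl9: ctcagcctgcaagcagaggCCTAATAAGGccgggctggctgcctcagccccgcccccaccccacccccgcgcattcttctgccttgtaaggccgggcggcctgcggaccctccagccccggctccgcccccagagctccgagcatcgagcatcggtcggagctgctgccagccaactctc
Of 21 listed SRF targets with a promoter entry 5 held a CArG box, namely Cnn2, Fhl2, Myl9, Srf and Vcl. It was found in 3.64% of the promoters of 2-fold falls, 0.765% of those of 2-fold rises and 1.62% of those of all tested genes.

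Listed genes of signalling pathways with secreted ligands were more often called lower than higher, antagonists included. Pathway activity was not measured. In the TGF-beta and BMP list 19 of 33 measured genes fell and 1 rose (median -0.81), and after median centring 0 rose. Among ligands, Inhba, encoding the activin A subunit, fell by 2.41 ± 0.40, with wild-type line 5 lowest of its group at 9.69 log2 beside 11.04 and 10.85, and null arrays at 7.65, 8.77 and 7.95. Grem1, a secreted BMP antagonist, fell by 3.12 ± 0.28. Id3, a target of BMP signalling, read 9.93, 9.89 and 10.20 against 8.40, 7.94 and 7.67 (-2.0 ± 0.19). In these 3 genes the genotypes did not overlap.

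In the Wnt list 14 of 31 measured genes fell and 2 rose (median -0.37). Dkk2, a secreted Wnt modulator, read 8.65, 8.42 and 8.15 log2 in wild type and 4.00, 5.16 and 4.72 in null, 13.7-fold lower (-3.78 ± 0.28). The ligand gene Wnt4 fell by 2.43 ± 0.22, and the matricellular genes Ccn5 and Ccn4, which were first found as Wnt-induced genes, fell (differences of -2.81 ± 0.30 and -2.27 ± 0.24). In the Notch list 9 of 18 fell and 2 rose (median -0.45), with 0 rising after median centring. The falls covered a ligand (Jag1, -2.43 ± 0.27), a receptor (Notch3, -1.37 ± 0.16) and transcriptional targets. Hes1, a target that encodes a bHLH repressor, read 7.71, 7.69 and 7.70 against 5.93, 5.71 and 5.30 (-2.05 ± 0.16), and Hey1, of the same family, fell by 1.90 ± 0.15. Wild-type arrays of Hes1 were almost equal.

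Insulin-like growth factors and their binding proteins fell in 10 of 14 measured genes and 0 rose (median -1.25). Pappa, the protease that frees the ligand by cutting IGFBP4, read 9.25, 9.43 and 8.72 log2 in wild type and 5.87, 6.42 and 5.41 in null (-3.23 ± 0.28). Its substrate's gene Igfbp4 fell by 2.02 ± 0.24 and Igfbp3 fell by 1.5 ± 0.25. The ligand gene Igf2 fell by 1.43 ± 0.20, and Irs1, the adaptor below the receptor, fell by 1.76 ± 0.18. The genes named here, for ligand, protease, binding proteins and adaptor, were picked among called genes, so that their lack of overlap follows from the choice.

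Among growth factor receptors and adhesion molecules 19 of 32 fell and 2 rose (median -0.85), with the integrin genes Itgb3 (-2.79 ± 0.26) and Itga4 (-2.18 ± 0.28) among the falls. Among axon guidance and growth factor ligands 20 of 33 fell and 3 rose (median -0.66). Epha3, an ephrin receptor gene, fell by 2.45 ± 0.43, Ntn1, encoding netrin-1, fell by 2.39 ± 0.13 to the blank level, Fgf7, a growth factor for epithelia, fell by 2.36 ± 0.26, and Ptn, encoding pleiotrophin, fell by 2.26 ± 0.44. Ptn spread widely between null lines, at 8.17, 9.53 and 7.50 log2 in null beside 10.54, 10.81 and 10.65 in wild type. Of 27 measured genes of retinoic acid handling and nuclear receptors 9 fell (33.3%) and 1 rose (3.7%), with a median of -0.28. The shares over all autosomal genes were 11.2% lower and 14.7% higher. Crabp1, which binds retinoic acid in the cytoplasm, read 12.27, 12.21 and 12.43 against 10.27, 9.56 and 9.17 (-2.63 ± 0.25), and its paralog Crabp2 fell by 2.59 ± 0.15. Vdr, the vitamin D receptor gene, fell by 2.25 ± 0.20.

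**Figure D3:**
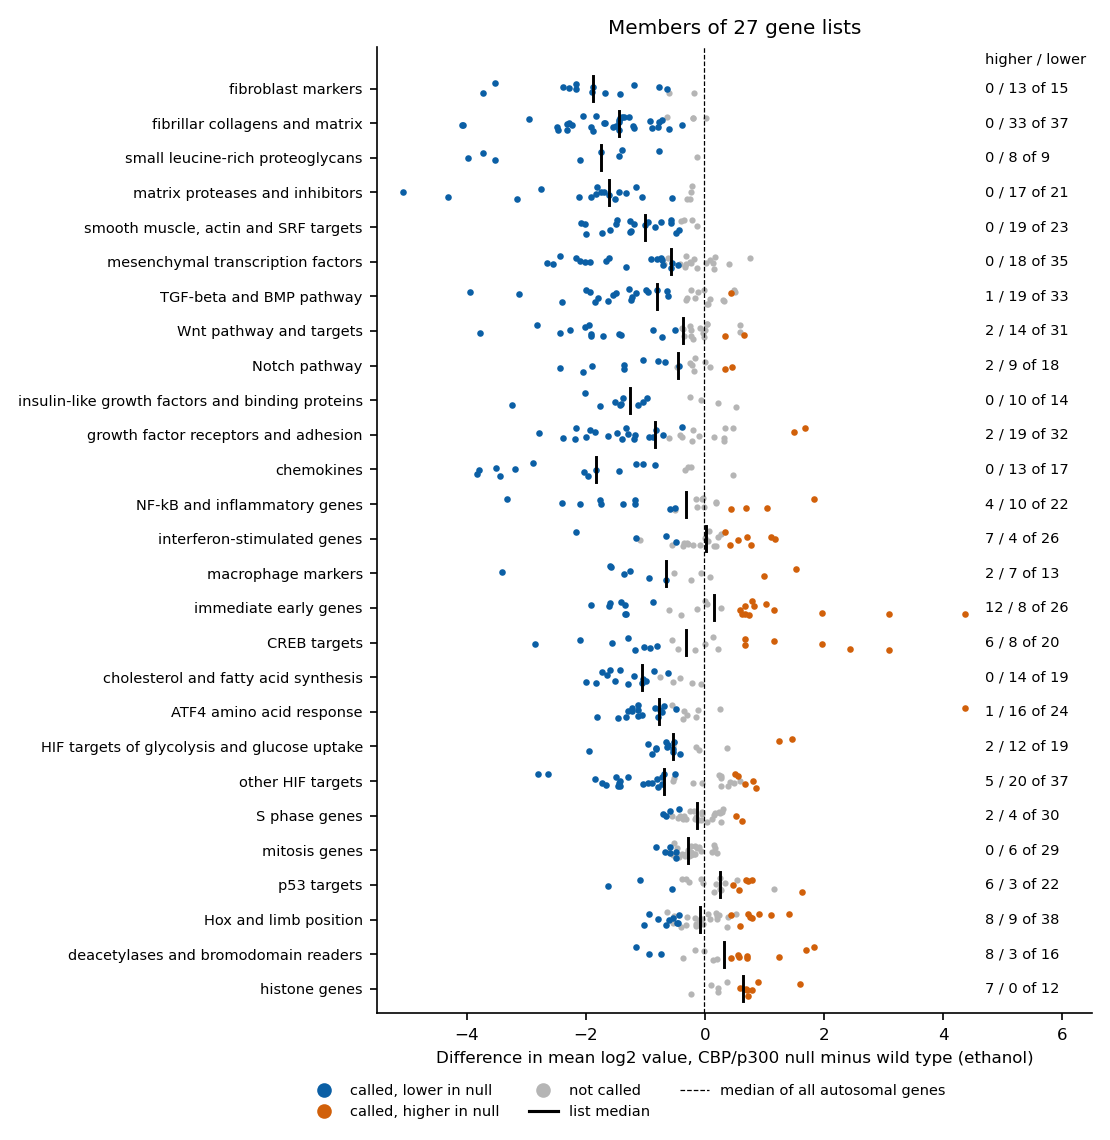
Differences in mean log2 value (null minus wild type, ethanol arrays) of the measured autosomal members of 27 gene lists, 1 point per gene with vertical jitter. Blue points were called lower, orange points higher and grey points were not called, black bars are list medians, the dashed line is the median of all autosomal genes, and the numbers at right count members called higher and lower. Matrix, protease, fibroblast and chemokine lists lie to the left, and immediate early genes spread to both sides.

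Chemokines made by fibroblasts fell in 13 of 17 measured genes and 0 rose (median -1.82). Ccl2, the main attractant of monocytes, read 10.43, 10.07 and 9.77 log2 in wild type and 5.99, 6.45 and 6.34 in null (-3.83 ± 0.19, adjusted p = 2.37e-05). Its neighbour in function Ccl7 read 10.69, 10.51 and 10.17 against 7.11, 7.03 and 6.72 (-3.50 ± 0.17). The neutrophil attractants Cxcl5 and Cxcl1 fell (differences of -3.79 ± 0.33 and -3.45 ± 0.20). No null array reached the lowest wild-type array in these 4 genes.

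In the list of NF-kB and inflammatory genes 10 of 22 fell (45.5%) and 4 rose (18.2%), with a median of -0.33. All autosomal genes had 11.2% lower and 14.7% higher. Il6, the cytokine interleukin 6, fell from 7.06, 6.37 and 6.6 log2 to 3.29, 3.41 and 3.35, under the blank level, an understated -3.33 ± 0.18. Bcl3, a nuclear cofactor of NF-kB, fell by 2.40 ± 0.18, and Ptges, which makes prostaglandin E, fell by 2.11 ± 0.22. Icam1, an adhesion molecule for leukocytes and itself an NF-kB target, went the other way, from 5.80, 5.45 and 6.23 to 7.92, 7.25 and 7.81 (1.83 ± 0.24). Inflammatory genes thus did not move as a block.

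Markers of macrophages, which can accompany primary fibroblasts, changed in the same comparison. Of 13 measured, 7 fell (53.8%) and 2 rose (15.4%), beside 11.2% and 14.7% over all autosomal genes. Their median was -0.66, and their mean level lay between 4.08 and 5.09 log2 in wild type and between 3.90 and 3.96 in null. Lyz2, the macrophage lysozyme gene, read 6.77, 8.53 and 8.88 in wild type and 4.61, 5.13 and 4.20 in null (-3.41 ± 0.52). C1qa, a complement gene, read 3.63, 5.18 and 5.78 against 3.17, 3.42 and 3.22 (-1.59 ± 0.47), and its call was lost when any array except that of wild-type line 3 was left out (adjusted p up to 0.134). C1qc fell by 1.59 ± 0.31, while Cd68, a lysosomal glycoprotein, rose by 1.53 ± 0.33. Wild-type line 3 was lowest of its group for Lyz2 and C1qa. The count of 7 was 2 without wild-type line 4, null line 1 or null line 6, and 3 without null line 5. The part of macrophage RNA in the lower inflammatory genes was not tested.

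Interferon-stimulated genes were split, with 7 of 26 higher (26.9%) and 4 lower (15.4%; median 0.03), beside 14.7% and 11.2% over all autosomal genes. Cyclic loess or median centring gave 4 higher and 5 lower (medians -0.16 and -0.01). The 7 became 3 without wild-type line 3 or null line 6 and 2 without wild-type line 4. Ifit3, an antiviral effector, read 8.57, 7.67 and 8.06 log2 against 6.00, 5.78 and 6.01 (-2.17 ± 0.22), and the interferon-induced chemokine gene Cxcl10 fell by 1.16 ± 0.21. Dhx58 and Ifih1, which encode cytoplasmic RNA sensors, rose by 1.17 ± 0.25 and 1.1 ± 0.18.

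Early-response genes, which CREB, SRF and AP-1 switch on within minutes of a stimulus, moved in both directions and included some of the largest rises. Of 26 immediate early genes 12 rose and 8 fell (median 0.15), and of 20 CREB targets 6 rose and 8 fell (median -0.31). Some genes stand on both lists. Fos, the AP-1 subunit gene and a textbook target of CREB and of CBP, read 6.01, 6.14 and 6.28 log2 in wild type and 9.47, 8.82 and 9.40 in null, 8.5-fold higher (3.09 ± 0.18, adjusted p = 4.83e-05). Nr4a1, an orphan nuclear receptor gene, read 8.86, 8.75 and 8.96 against 11.01, 10.56 and 10.90 (1.97 ± 0.14), and its paralog Nr4a3 read 5.70, 5.99 and 5.88 against 8.18, 8.32 and 8.36 (2.43 ± 0.12). In these 3 genes and in Atf3, described above, each null array exceeded each wild-type array.

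Other members fell as clearly. Pde4b, a phosphodiesterase that ends cAMP signals, read 7.16, 6.99 and 6.92 log2 in wild type and 4.34, 4.58 and 3.62 in null (-2.85 ± 0.23). Dusp4, a phosphatase that ends MAP kinase signals, fell by 2.09 ± 0.20, from 8.15, 8.25 and 8.01 to 6.45, 5.65 and 6.03. Myc, the growth-promoting transcription factor gene, read 8.87, 8.83 and 8.85 against 7.25, 6.82 and 6.72, 3.79-fold lower (-1.92 ± 0.15). The wild-type arrays of Myc were almost equal, and all null arrays lay below them.

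The promoters of Fos and Nr4a1 are shown because both genes rose while holding several copies of TGACG, the shorter form of the CREB site (capitals, either strand). The windows are the 150 bases before the start of Fos (chr12:85473740-85473889, plus strand) with matches beginning 129 and 66 bases before it, and the 250 bases before that of Nr4a1 (chr15:101266596-101266845, plus strand) with matches beginning 233, 213, 69 and 40 bases before it, in RefSeq's GRCm38.p6.
Fos: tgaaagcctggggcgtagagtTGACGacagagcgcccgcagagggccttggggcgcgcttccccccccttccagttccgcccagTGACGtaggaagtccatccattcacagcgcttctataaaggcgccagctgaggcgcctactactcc
Nr4a1: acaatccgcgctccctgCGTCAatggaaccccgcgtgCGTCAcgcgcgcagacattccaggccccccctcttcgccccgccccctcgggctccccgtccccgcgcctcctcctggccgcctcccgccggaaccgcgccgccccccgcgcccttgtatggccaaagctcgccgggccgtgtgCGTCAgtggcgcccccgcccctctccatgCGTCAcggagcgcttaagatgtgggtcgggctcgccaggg
TGACG was searched after the data were seen. It was in 13 of 15 listed CREB targets with a promoter entry, among them Pde4b and Nfil3, which were called lower. TGACG was in 38.6% of the promoters of 2-fold rises, 25.8% of those of 2-fold falls and 29.9% of those of all tested genes. The full palindrome TGACGTCA, which contains TGACG, was in 5.93% of rises, 1.32% of falls and 2.99% of all, and in 2 of the 15 listed targets (Dusp1 and Ppp1r15a).

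**Figure D4:**
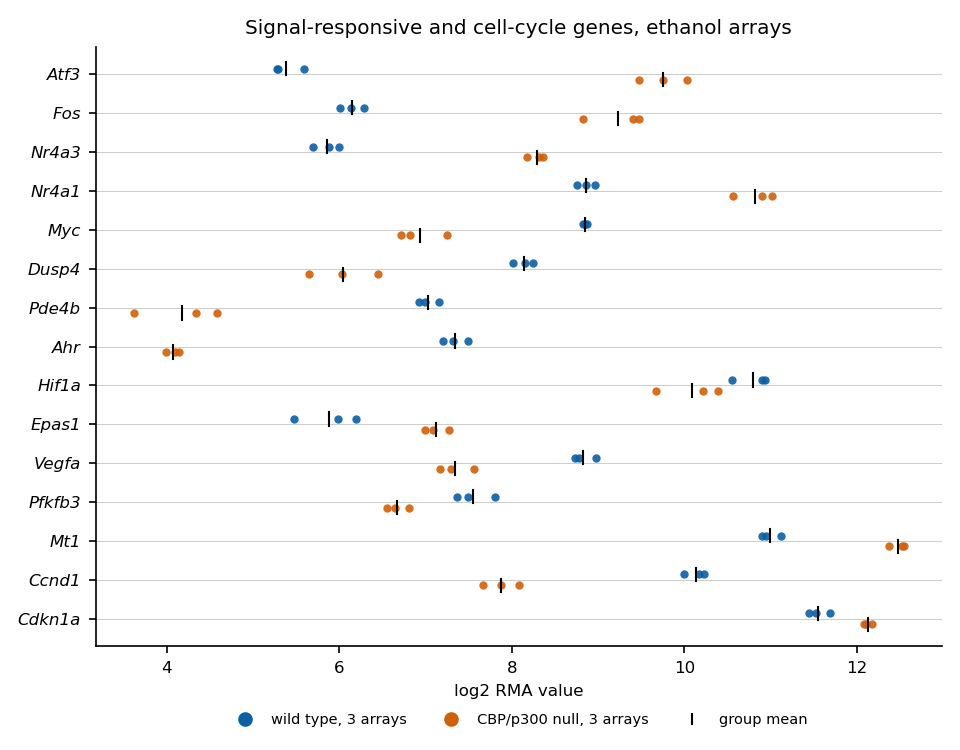
Log2 RMA values per ethanol array of early-response, hypoxia-pathway and cell-cycle genes. Blue points are the 3 wild-type arrays, orange points the 3 null arrays and black ticks the group means. Atf3, Fos, Nr4a3 and Nr4a1 are higher in null, Myc, Dusp4, Pde4b, Ahr and Ccnd1 lower.

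Genes of cholesterol and fatty acid synthesis, the targets of the SREBP factors, fell in 14 of 19 measured members and 0 rose (median -1.07). Cyp51, an enzyme that removes a methyl group from lanosterol, read 9.48, 9.44 and 9.49 log2 in wild type and 7.82, 7.34 and 7.27 in null (-2.0 ± 0.16). Scd1, the desaturase that makes monounsaturated fatty acids, read 10.82, 10.96 and 10.85 against 9.17, 9.06 and 8.91 (-1.83 ± 0.11). Insig1, the sterol-sensing partner that holds SREBP in the endoplasmic reticulum, fell by 1.73 ± 0.12. Idi1, an enzyme of isoprenoid synthesis, fell by 1.64 ± 0.37, with wild-type line 5 at 7.85 beside 9.08 and 9.05, and its call was lost without wild-type line 3 or 4 (adjusted p up to 0.0597). Genes of lipid storage and fat cells fell in 7 of 17 (41.2%, beside 11.2% over all autosomal genes) and 0 rose (median -0.23). Fabp4, a fatty acid carrier, fell by 1.84 ± 0.24, Acsl3, which activates fatty acids, fell by 1.62 ± 0.27, Lpl, lipoprotein lipase, fell by 1.51 ± 0.16, and its inhibitor Angptl4 fell by 1.43 ± 0.22.

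Targets of ATF4, the factor of the amino acid response, fell in 16 of 24 measured members, while 1 rose (median -0.77). The rise was Atf3. Trib3, a pseudokinase that feeds back on ATF4, fell by 1.81 ± 0.20, Ddit4, an inhibitor of mTORC1, fell by 1.46 ± 0.16, and Slc7a5, a transporter of large neutral amino acids, fell by 1.33 ± 0.15. Slc7a5 read 9.83, 9.79 and 9.94 log2 against 8.80, 8.49 and 8.30. Of 20 genes of the unfolded protein response 5 fell (25.0%) and 2 rose (10.0%), with a median of -0.05. Over all autosomal genes 11.2% fell and 14.7% rose. Xbp1, a factor spliced in stressed cells, was lower (-0.74 ± 0.12) and Atf6, another sensor of the same stress, higher (0.97 ± 0.15). The 5 became 2 without wild-type line 4 or 5 and 1 without null line 5 or 6, and after median centring 1 gene rose.

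Targets of hypoxia-inducible factor (HIF), which acts in low oxygen, were more often called lower than higher. Of 19 measured targets in glycolysis and glucose uptake 12 fell and 2 rose (median -0.54), with 1 fall of at least 2-fold, and of 37 other targets 20 fell and 5 rose (median -0.68). On the dipyridyl arrays 8 of the 12 falls and 17 of the 20 falls were negative too, and 1 of the 2 rises and 2 of the 5 rises were positive. The 12 became 7 without wild-type line 3 or null line 5 and 5 without null line 6, and the 5 rises became 3 without null line 5 or 6. Slc16a3, the lactate exporter gene, read 5.92, 6.23 and 6.44 log2 in wild type and 4.35, 4.26 and 4.14 in null (-1.95 ± 0.15), and Hk2, a hexokinase gene, fell by 0.96 ± 0.10. Pfkfb3, which makes the activator of phosphofructokinase, fell by 0.89 ± 0.14. Eno2, an enolase gene, and Gbe1, the glycogen branching enzyme gene, were the 2 rises, by 1.46 ± 0.10 and 1.24 ± 0.15. Among other targets Stc1, the hormone stanniocalcin, fell by 2.81 ± 0.22 and Ndrg1, a differentiation-related gene, fell by 2.63 ± 0.15. Vegfa, the main angiogenic growth factor gene, read 8.73, 8.98 and 8.78 against 7.29, 7.56 and 7.17 (-1.49 ± 0.14), and Pgf, its placental relative, fell by 1.84 ± 0.12.

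Of 15 measured components of the HIF pathway itself 3 were higher (20.0%) and 2 lower (13.3%; median 0.21). These shares lie near the 14.7% and 11.2% over all autosomal genes. Hif1a, the oxygen-regulated subunit gene, read 10.90, 10.93 and 10.55 log2 in wild type and 9.67, 10.39 and 10.22 in null (-0.70 ± 0.20, adjusted p = 0.0387). Its call was lost without wild-type line 3 or 4 or null line 1 or 6 (adjusted p up to 0.127), and also with the mean of all probe sets. Epas1, which encodes the paralogous HIF subunit, rose by 1.24 ± 0.19, from 5.98, 6.19 and 5.47 to 6.99, 7.09 and 7.27, a call lost with the mean of all probe sets. Egln3, a prolyl hydroxylase and HIF target, fell by 1.66 ± 0.12, and Vhl, whose product tags hydroxylated HIF for destruction, rose by 0.77 ± 0.14. Cited2, a competitor of HIF for CBP and p300, read 10.03, 9.96 and 9.98 against 10.58, 10.09 and 10.53 (0.41 ± 0.15, adjusted p = 0.0803), which did not pass the test. The letters ACGTG, the core of the HIF site, were in 26.3% of the promoters of 2-fold falls, 25.6% of those of rises and 26.2% of those of all tested genes, on either strand.

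Genes of redox and metal handling were mixed. Of 29 NRF2, glutathione and thioredoxin genes 6 rose (20.7%) and 5 fell (17.2%; median 0.06), beside 14.7% and 11.2% over all autosomal genes. After cyclic loess 5 rose and 6 fell. The 5 falls became 3 without null line 6. Gsta4, a glutathione transferase for lipid aldehydes, read 6.05, 6.02 and 6.10 log2 against 8.10, 7.83 and 7.71 (1.82 ± 0.13), and Txnip, an arrestin that limits glucose uptake, rose by 0.89 ± 0.12. Sod3, the extracellular superoxide dismutase gene, fell by 1.84 ± 0.32, and Srxn1, sulfiredoxin, fell by 1.05 ± 0.14. Of 12 metallothioneins and zinc transporters 3 rose (25.0%) and 2 fell (16.7%; median 0.04), with 2 rising and a median of -0.06 after cyclic loess. Mt1, a metallothionein gene, read 10.95, 10.90 and 11.12 against 12.54, 12.37 and 12.52 (1.49 ± 0.11), and the importer gene Slc39a8 rose by 0.95 ± 0.14. Of 13 iron genes 5 fell (38.5%) and 1 rose (7.69%), beside 11.2% and 14.7% over all autosomal genes. Their median was -0.25, and the 5 became 3 without wild-type line 3 or 5 or null line 5 or 6. Slc40a1, the iron exporter ferroportin, fell by 1.45 ± 0.21, while Tfrc, the transferrin receptor gene, was not called (-0.40 ± 0.35, adjusted p = 0.475) and its groups overlapped.

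The Ahr list was small, with 4 of 9 measured genes lower and 0 higher (median -0.02, and 0.01 after cyclic loess). Ahr, the receptor for dioxin-like ligands, read 7.49, 7.20 and 7.32 log2 in wild type and 3.99, 4.14 and 4.09 in null, 9.59-fold lower (-3.26 ± 0.12, adjusted p = 1.16e-05). The arrays of each group lay within 0.3 log2 of each other, and the groups were far apart. The Ahr targets Cyp1b1, an oxidase of steroids and xenobiotics, and Ugt1a6a, a glucuronosyltransferase, fell (differences of -2.06 ± 0.28 and -3.74 ± 0.28). Ugt1a6a shares exons with other genes of its cluster, so that its probe set may not separate them.

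Genes of S phase and mitosis had no called 2-fold change. Of 30 S phase genes 4 fell (13.3%) and 2 rose (median -0.14), and of 29 mitosis genes 6 fell (20.7%) and 0 rose (median -0.29), beside 11.2% lower over all autosomal genes. After cyclic loess 6 S phase and 12 mitosis genes fell. The S phase count of 4 became 2 without any of the wild-type lines, 7 without null line 1, 1 without null line 5 and 0 without null line 6. The mitosis count of 6 became 3 without wild-type line 3 or 5 or null line 5, 2 without wild-type line 4 and 1 without null line 6. Tpx2, a spindle assembly factor, fell by 0.82 ± 0.15. Anln, encoding the furrow protein anillin, fell by 0.67 ± 0.17, a call lost without wild-type line 3 or 4 or null line 1 or 6. With the mean of all probe sets the calls of Anln and Tyms were lost as well. Pold1, a DNA polymerase subunit, fell by 0.70 ± 0.16 (lost without null line 6), and Tyms, thymidylate synthase, fell by 0.59 ± 0.15 (lost without wild-type line 3 or 5 or null line 5 or 6).

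Among regulators of G1, 6 of 19 were higher (31.6%) and 5 lower (26.3%), with a median of 0.24. The shares over all autosomal genes were 14.7% and 11.2%. After cyclic loess 4 were higher and 4 lower, and after median centring 3 higher and 5 lower. The 6 became 3 without wild-type line 3 or 4 or null line 6. Ccnd1, encoding cyclin D1, read 10.23, 10.00 and 10.17 log2 in wild type and 8.08, 7.87 and 7.67 in null, 4.79-fold lower (-2.26 ± 0.14). Inhibitors went both ways. Cdkn1c, encoding p57, fell by 1.71 ± 0.16, and Cdkn2a, the locus of p16 and p19ARF, fell by 1.47 ± 0.27. Cdkn1a, encoding p21, rose by 0.57 ± 0.11, from 11.44, 11.53 and 11.69 to 12.11, 12.08 and 12.18, and Rbl2, a pocket protein gene, rose by 1.53 ± 0.13.

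Targets of p53, for which CBP and p300 are known coactivators, were higher in 6 of 22 measured genes (27.3%) and lower in 3 (13.6%; median 0.26). Over all autosomal genes these shares were 14.7% and 11.2%. Perp, a junction and apoptosis gene, rose by 1.63 ± 0.22, and Gadd45a, a growth arrest gene, fell from 8.30, 8.34 and 7.89 log2 to 6.41, 6.49 and 6.72 (-1.63 ± 0.16). Plk2, a kinase of the centrosome and stress response, fell by 1.1 ± 0.11. In the Myc network and ribosome biogenesis 7 of 29 fell (24.1%) and 3 rose (10.3%), beside 11.2% and 14.7% over all autosomal genes. The median was -0.15, and 10 fell and 2 rose after cyclic loess. The 7 became 4 without wild-type line 3 or 4 and 2 without null line 5 or 6. Mxd1, a repressor that competes with Myc for Max, read 5.36, 5.54 and 5.54 against 7.72, 7.50 and 7.34 (2.04 ± 0.13), opposite to Myc, and Srm, spermidine synthase, fell by 1.07 ± 0.18.

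Of 17 measured lysine acetyltransferases and coactivators 4 rose (23.5%, beside 14.7% over all autosomal genes) and 1, Crebbp, fell (median 0.34), while 12 were not called. After cyclic loess 3 rose and 1 fell. Kat2b, the acetyltransferase PCAF, read 8.27, 8.46 and 7.90 log2 in wild type and 9.53, 10.05 and 9.99 in null, 3.13-fold higher (1.65 ± 0.19). Ncoa1, a steroid receptor coactivator, rose by 1.61 ± 0.15, and Crtc2, a coactivator of CREB, by 0.82 ± 0.14. Of 16 deacetylases and bromodomain readers 8 rose and 3 fell (median 0.32), and 7 rose and 4 fell after cyclic loess. Brd2, which binds acetylated histone tails, read 8.74, 8.82 and 8.99 against 10.66, 10.38 and 10.62 (1.70 ± 0.12). Sirt1, a deacetylase driven by NAD, rose by 1.83 ± 0.41, with wild-type line 5 at 5.24 beside 6.46 and 6.54, and its call was lost without null line 6 (adjusted p = 0.0549). Hdac9, a deacetylase of class IIa, fell by 1.15 ± 0.11 to the blank level. Of 12 measured histone genes 7 rose and 0 fell (median 0.64), among them H2bc21 (1.59 ± 0.11, from the blank level) and H2ax, the variant marked at DNA breaks (0.89 ± 0.15).

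Hox genes moved in both directions. Of 38 Hox and limb position genes 8 rose (21.1%) and 9 fell (23.7%; median -0.08), and 5 rose and 12 fell after cyclic loess. The 8 became 4 without wild-type line 3, 3 without wild-type line 4 and 5 without null line 6, and the 9 became 4 without wild-type line 4 or null line 6 and 5 without null line 5. Hoxd9 rose by 1.41 ± 0.22 and Hoxd13 rose by 1.1 ± 0.31 (the latter lost without wild-type line 4 or 5 or null line 6, after cyclic loess, and with the mean of all probe sets), while Hoxc8 fell by 1.02 ± 0.20 and the Hox partner Meis1 fell by 0.94 ± 0.17. Of 16 clock genes 3 fell (18.8%) and 1 rose (6.25%; median -0.01), beside 11.2% and 14.7% over all autosomal genes, so that the list's counts lie near the background. Bhlhe40, a repressor in the clock and a HIF target, fell from 9.06, 9.15 and 9.22 log2 to 7.69, 7.21 and 7.33 (-1.73 ± 0.14), Nfil3 fell by 0.93 ± 0.19, and Tef, an activator of the same output genes, rose by 0.69 ± 0.14, a call lost with the mean of all probe sets. Of 16 imprinted genes 7 fell (43.8%) and 2 rose (12.5%), beside 11.2% and 14.7% over all autosomal genes. The median was -0.43, with 0 rising after cyclic loess, and the non-coding RNA gene Rian fell by 1.55 ± 0.15.

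In most lists of other cell types, most markers were not called. The share called lower was nevertheless often above the 11.2% over all autosomal genes. Many markers had means at or under the blank level in both genotypes. These were 8 of 12 endothelial, 8 of 19 skeletal muscle, 7 of 15 neural, 6 of 14 cartilage and bone and 4 of 9 mesothelial markers. Among erythroid markers they were 3 of 7, and among epithelial and pericyte markers 1 of 12 and 1 of 6. For such genes a missing call does not show an unchanged level. Skeletal muscle markers had 5 of 19 lower (26.3%) and mesothelial markers 2 of 9 (22.2%), with 0 higher in either list. Erythroid markers had 0 of 7 called in either direction. Hba-a1, an alpha-globin gene, read 3.87, 4.63 and 4.19 log2 in wild type and 4.01, 6.22 and 3.87 in null. The embryonic globin gene Hbb-y read 2.68, 2.79 and 2.91 against 2.82, 5.41 and 2.67. Among the ethanol arrays only that of null line 5 thus stood high. On the dipyridyl arrays null line 5 read 3.56 and 2.81, and wild-type line 5 read 7.06 and 7.55, so the signal did not follow the line. Endothelial markers had 2 of 12 lower (16.7%) and 1 higher (8.33%), near the 11.2% and 14.7% over all autosomal genes, and Flt1, a receptor for VEGF, fell by 1.24 ± 0.21. Epithelial markers had 4 of 12 lower (33.3%) and 1 higher (8.33%), the 4 becoming 2 without wild-type line 5 or null line 5. The keratin genes Krt18 and Krt8 fell (differences of -2.04 ± 0.21 and -1.52 ± 0.17). Neural markers had 3 of 15 lower (20.0%, beside 11.2%) and 0 higher. These were Stmn2, a microtubule regulator, at 8.26, 8.24 and 8.63 against 4.85, 4.51 and 4.18 (-3.86 ± 0.19), Tubb3, a tubulin gene (-3.51 ± 0.32), and Gap43, a growth cone gene (-3.45 ± 0.15), while the neural markers' mean level lay between 4.37 and 4.40 in wild type. Of 6 pericyte markers 3 fell and 0 rose, among them Rgs5 (-1.53 ± 0.37, lost without wild-type line 3 or 4 or null line 6). Sox9, a cartilage and mesenchyme factor, fell by 2.09 ± 0.25 in a list with 3 of 14 lower (21.4%) and 0 higher. The share of cells of any such type was not measured.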

How the data were processed

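RNA of 12 samples was measured on Affymetrix arrays, and the 6 ethanol arrays form the comparison. Per the submitters' processing notes, the authors used RMA and Affymetrix Expression Console 1.1, and the deposited values are log2 probe set summaries. RMA adjusts background, quantile-normalizes and summarises probes, so a shift shared by most genes would be removed, and low levels are compressed. No source used here names a genome build for the probes. The files held 45141 probe sets. After 104 controls were removed, 28898 had 1 gene symbol (28689 updated through the gene identifier, 209 kept as listed), 551 had several and 15588 none. The probe set with the highest mean stood for each of 17097 genes (7180 had more than 1). Chromosomes came from a GRCm38.p6 gene table, and 596 X-linked, 12 Y-linked and 161 unplaced or mitochondrial genes were tested but are not reported beyond the sex check.

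Tests used limma 3.58.1 (lmFit, eBayes) in R 4.3.3 on the 6 ethanol arrays with 1 mean per genotype, checked on simulated data. The difference between treatments in the genotype effect came from a fit over all 12 arrays. Tables, promoter searches and figures used Python 3.11.15, pandas 2.3.3, numpy 2.4.6 and matplotlib 3.10.9. Promoters were 250 bases before to 50 after the start in a RefSeq table, which matched 12989 tested genes. The number of arrays limits the precision.

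The comparison, the 50 lists of 1091 genes (945 measured on autosomes) and the rule that selects genes to name were all chosen with earlier results of these data known. The rule took the 12 largest rises and falls among called genes without overlap, up to 4 called members per list (or, in a list with none, the 2 that moved most) and fixed genes that included Crebbp, Cited2, Hif1a and Tfrc. Not every gene so selected is described, and Myl9 and the genes of the closing section's families were chosen after their values were seen.

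Alternatives were all 12 arrays with and without the MEF line as a random block, cyclic loess, array weights, median centring, robust eBayes, an intensity trend, the mean over a gene's probe sets, removal of the dimmest 40% of genes, every probe set on its own, adjustment over autosomal genes, a fold minimum of 1.5, leaving out each array or both deviating arrays, and a term for these 2. All 12 arrays without the 2 deviating ones was added after the data were seen.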

Additional observations from a re-analysis of the deposited data

Results flagged for a closer look

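For 11 of the genes named above, the difference between null and wild type itself differed between dipyridyl and ethanol (limma's interaction over all 12 arrays, adjusted p under 0.05), as it did for 91 autosomal genes in all. The values are the null minus wild-type difference under dipyridyl minus that in ethanol, in log2 units. The largest was in Fos, at -1.80 ± 0.28 (adjusted p = 0.0082), with a difference of 3.09 in ethanol and 1.29 under dipyridyl. Of the other early-response genes, Nr4a3 had -1.14 (2.43 in ethanol, 1.29 under dipyridyl). Ahr had 1.70, with -3.26 in ethanol and -1.56 under dipyridyl, and Mxd1 had -0.83.

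The remaining 7 belong to the HIF, redox and metal lists. Pgf had -1.65, with -1.84 in ethanol and -3.49 under dipyridyl. Gbe1 had -1.42 and Vhl -1.07, both higher in null in ethanol (1.24 and 0.77), with differences of -0.18 and -0.30 under dipyridyl (limma adjusted p = 0.18 and 0.0203). Pfkfb3 had 1.41, from -0.89 in ethanol to 0.52 under dipyridyl, and Slc16a3 had 0.96. Mt1 had -1.31 and Txnip -0.90, with differences under dipyridyl of 0.18 and -0.01 that did not pass the test (limma adjusted p = 0.118 and 0.944).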

How the results depend on the processing

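The counts of genes changed at least 2-fold stayed within 1.5 times under every alternative run. The total of 4231 became 7326 with array weights (3965 higher, 3361 lower), 6650 with a term for the 2 deviating arrays (3873 higher, 2777 lower) and 1110 with a fold minimum of 1.5 (447 higher, 663 lower), which by its construction passes fewer genes. Leaving out each array gave 2853 to 4436 genes, 1582 to 2422 higher and 1271 to 2014 lower. The cause was not tested. Leaving out both deviating arrays gave 5593. Without the dimmest 40% of genes the median difference was 0.12. No paired analysis was possible because the genotypes share only line number 5, which marks no shared embryo. With the MEF line as a replicate block over all 12 arrays, 5506 genes were called, against 5526 without it, and no named gene lost its call.

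The 186 named genes had 3902 values under the alternatives, of which 3815 kept sign and call, 78 lost the call (in 38 genes), 6 gained it and 3 changed sign. The sign changes were in uncalled globin genes: Hba-a1 was -0.16 with array weights and -0.29 to 0.88 over the sets without 1 array, and Hbb-y was -0.05 to 1.32, both lowest without null line 5. Of 1960 list counts, 1665 stayed within 1.5 times. Levels near the blank controls limit falls such as those of Mmp13, Mmp3 and Il6.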

Other observations

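Gene families were also grouped by symbol after their values were seen, so their counts are descriptions. Of 18 measured subunits of the V-ATPase, the proton pump of lysosomes, 13 were higher and 0 lower in null (median 0.64 beside -0.009 over all autosomal genes), and 12 or 13 were higher under cyclic loess and median centring. Atp6v0b read 9.39, 9.34 and 9.82 log2 in wild type and 11.01, 10.55 and 10.80 in null (1.27 ± 0.17), Atp6v1e1 rose by 1.09 ± 0.12 and Atp6v1b2 by 0.98 ± 0.14. Rragd, a GTPase gene that couples lysosomes to mTORC1, rose from 4.40, 4.64 and 3.93 to 7.27, 7.41 and 7.77 (3.16 ± 0.21). Of 19 replication-type histone genes, which include some of the histone list above such as H2bc21, 14 were higher and 1 lower (median 0.98). H2bc18 rose by 3.12 ± 0.26, H3c7 by 2.31 ± 0.11 and H3c14 by 1.99 ± 0.11, and near-identical copies may share signal on these probe sets. These transcripts mostly lack poly(A) tails, which the labelling of 3' ends relies on.

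Of 294 zinc finger genes named Zfp and a number 64 were higher (21.8%) and 12 lower (4.08%; median 0.24), beside 14.7% and 11.2% over all autosomal genes, and 44 and 21 after cyclic loess. Of 42 ubiquitin-specific protease genes 11 were higher (26.2%) and 1 lower (2.38%). After cyclic loess 6 were higher and 2 lower, beside 1799 higher and 2194 lower among all 16328 autosomal genes. Ribosomal protein genes had 1 of 71 higher and 4 lower, and proteasome subunits 1 of 38 higher and 0 lower.

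Of 16 granzyme and mast cell protease genes 5 were lower (31.2%, beside 11.2% over all autosomal genes) and 0 higher. Gzme read 8.36, 8.82 and 9.49 log2 in wild type and 6.37, 4.83 and 4.89 in null (-3.52 ± 0.44), Gzmd fell by 3.63 ± 0.36 to the blank level, and Mcpt8 fell by 3.18 ± 0.34. Gzmd and Gzme are near-identical in sequence. Of 10 small proline-rich protein genes, known from the skin barrier, 5 were lower and 0 higher, with Sprr2k at 9.25, 9.27 and 9.27 against 6.08, 6.03 and 5.48 (-3.40 ± 0.17) and Sprr1a at a difference of -3.13 ± 0.19.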
